A study of Mus musculus with 6 samples.

Results

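The serine tRNAs of mouse brain were described from 12 reference sequences, namely all references of the deposited tables named as cytosolic tRNA-Ser, out of 190 references in all. They divide by anticodon into 2 AGA, 3 CGA, 5 GCT and 2 TGA references, and 10 of the 12 were listed in all 6 libraries. Ser-CGA-3 and Ser-TGA-1 were listed in 1 library, knockout replicate 1. Total RNA came from whole brain of wild-type mice (WT) or of mice lacking TRMT1L (KO), with 3 libraries per genotype that the submitters describe as biological triplicates. The RNA was depleted of ribosomal RNA and selected for sizes of 30 to 150 bp. The labels give no strain, age, sex or knockout allele, and the deleted gene's own mRNA was not measured in these tables, which leaves the genotypes as labelled. The comparison asks how the reads on each tRNA differ between brains with and without TRMT1L, a paralogue of the tRNA guanosine methyltransferase TRMT1.

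TRMT1 places methyl groups on guanosine 26, at the hinge between the D arm and the anticodon arm, and serine tRNAs are among its known substrates. Serine tRNAs also carry 3-methylcytidine at position 32, a bulky modification of adenosine 37 beside the anticodon and 1-methyladenosine at position 58. Together with leucine tRNAs they have a long variable arm, a stem and loop between the anticodon arm and the T arm, and a 3-methylcytidine is known in that loop in some of them. A methyl group on the face of a base that forms pairs can make reverse transcriptase insert a wrong base, skip the base or stop, so that the position is read as a mismatch, a deletion or a read start. A read start can equally be the 5′ end of an RNA fragment.

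The sequences below are those of the references whose values follow, rebuilt from the reference base listed at each position and written 5′ to 3′. Capitals mark, in order along the molecule, guanosine 26, cytidine 32, adenosine 37, the middle base of the variable-arm loop (reference position 50) and adenosine 58 (reference position 67), as far as each stretch holds them. Positions are counted from 1 at the 5′ end of the reference, and canonical numbers are given where they differ.
Ser-GCT-2: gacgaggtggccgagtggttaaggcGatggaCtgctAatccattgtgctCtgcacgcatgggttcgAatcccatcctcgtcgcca
Ser-GCT-3: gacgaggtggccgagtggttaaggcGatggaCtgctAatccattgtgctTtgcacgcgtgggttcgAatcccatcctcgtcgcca
Ser-GCT-4: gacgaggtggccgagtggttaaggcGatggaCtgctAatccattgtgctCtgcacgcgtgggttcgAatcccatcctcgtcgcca
Ser-AGA-1, positions 1 to 32: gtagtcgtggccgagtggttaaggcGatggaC
Ser-AGA-1, positions 51 to 85: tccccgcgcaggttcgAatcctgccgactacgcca
Ser-CGA-2, positions 51 to 85: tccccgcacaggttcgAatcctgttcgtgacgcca

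The GCT copies differ from each other at only 2 listed positions. Set against Ser-GCT-2, Ser-GCT-4 carries A58G and Ser-GCT-3 carries both C50T and A58G (the Ser-GCT-2 base, the reference position, then the other copy's base). Ser-GCT-1 shows no base different from Ser-GCT-4, and Ser-GCT-5, listed at positions 5 to 77, shows none different from Ser-GCT-2. Between the anticodon groups, Ser-AGA-1 differs from Ser-GCT-2 at 16 of 67 shared listed positions and from Ser-CGA-2 at 9 of 62. Ser-AGA-1, Ser-AGA-2 and Ser-TGA-2 do not differ at any of their 67 listed positions, because positions 33 to 50, which hold the anticodon, had under 30 reads in every library. The tables list a position only where it had at least 30 reads.

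Reads that fit several copies were counted on each of them, so the 12 references are far fewer independent measurements. Ser-TGA-2 had the same coverage and base counts as Ser-AGA-1 at 301 of 385 shared positions, counted over libraries. Ser-GCT-5 had no more reads than Ser-GCT-2 at each of 367 shared positions, and Ser-GCT-1 no more than Ser-GCT-4 at 397 of 399. Ser-AGA-2 was less alike, with the same counts as Ser-AGA-1 at 115 of 370 shared positions and coverage no higher at 251. Since no listed base tells the 3 references apart, the AGA and TGA isoacceptors are mainly given through Ser-AGA-1, with Ser-AGA-2 and Ser-TGA-2 where their values differ, and the wobble base 34 of AGA, which is inosine in the mature tRNA, could not be measured. RefSeq (GRCm38.p6) lists 22 serine tRNA genes, of which 7 are AGA, 3 CGA, 8 GCT, 3 TGA and 1 GGA. The tables name no genome build or gene locus, so no coordinates are given.

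Serine references held between 1.67% and 2.17% of all base calls in a library. Their number of base calls ran from 104708 to 113147 in the WT libraries and from 155253 to 173110 in the KO libraries, and the total over all references ran from 6151209 to 6295061 and from 7981301 to 8797395. The KO libraries were thus deeper in every case. The highest coverage of a serine position was 771 reads, well under the highest value of 8032 near which coverage of abundant tRNAs levels off.

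Coverage was uneven along the molecule and differed in shape between the isoacceptors. On Ser-GCT-2, all 85 positions were listed in all 6 libraries. The loop of its variable arm, at position 50, was covered by 262, 191 and 244 reads in WT and by 393, 382 and 373 in KO, so reads reached through the long arm. Ser-AGA-1 was read at its 5′ end, up to position 32, and from position 51 on, with a gap from position 33 to 50, over the anticodon and the 5′ part of the variable arm. Ser-CGA-2 was read mostly at its 3′ end. In KO replicate 2, where 57 of its positions from 13 on were listed, the median coverage was 36 reads and the highest 539, at position 68, and in WT replicate 1 the 22 listed positions ran from 64 to 85.

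**Figure D1:**
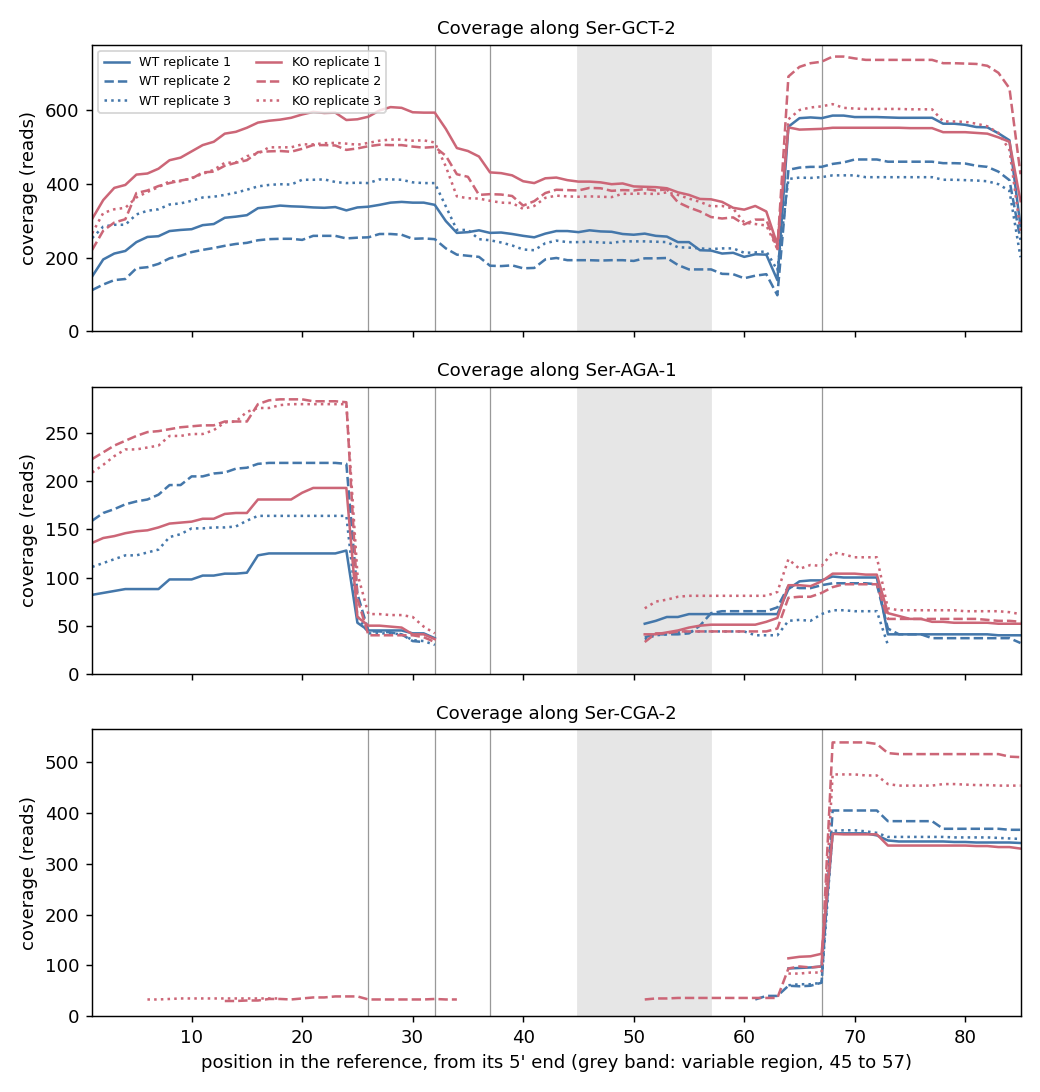
Coverage in reads (vertical axes) at each reference position (horizontal axis) of Ser-GCT-2, Ser-AGA-1 and Ser-CGA-2 in the 6 libraries. The grey band is the variable region, vertical lines mark positions 26, 32, 37 and 67, and lines break where a position had under 30 reads. Ser-GCT-2 is covered throughout with a step up at position 64, Ser-AGA-1 drops after position 24, and Ser-CGA-2 rises at position 68.

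Guanosine 26 was mismatched in over 14% of pooled calls on 4 of the 5 GCT copies, more often than any other tested position of those copies, and nearly all mismatched calls were A. On Ser-GCT-2, the deepest copy, 31 of 338, 38 of 255 and 50 of 402 calls were mismatched in WT, and 122 of 579, 61 of 502 and 64 of 511 in KO. These are 12.2% ± 2.87 (SD, n = 3) and 15.2% ± 5.05 (SD, n = 3). KO replicate 1 was the highest library at 21.1%, and the other KO libraries, at 12.2% and 12.5%, lay within the WT range of 9.17% to 14.9%. Of the 366 mismatched calls pooled over libraries, 365 were A and 1 was T.

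On Ser-GCT-4, which differs from Ser-GCT-2 at position 58 only, 27 of 227, 20 of 201 and 22 of 272 calls were mismatched at guanosine 26 in WT. In KO they were 97 of 429, 61 of 381 and 55 of 362. The means were 9.98% ± 1.9 (SD, n = 3) and 17.9% ± 4.07 (SD, n = 3), and each KO library was higher than each WT library. The quasi-binomial test moderated with limma gave an unadjusted p of 0.0469 and an adjusted p of 0.556 over all 138 sites. Ser-GCT-1, which shares nearly all of these reads, had 10.2% ± 2.11 (SD, n = 3) and 18.2% ± 4.26 (SD, n = 3), with an unadjusted p of 0.0512 and an adjusted p of 0.556 by the same limma-moderated test.

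The other copies gave no separation in mismatches at guanosine 26. On Ser-GCT-3, 35 of 186, 23 of 170 and 25 of 242 calls were mismatched in WT and 58 of 321, 27 of 253 and 42 of 305 in KO. Their means were 14.2% ± 4.29 (SD, n = 3) and 14.2% ± 3.71 (SD, n = 3), and the groups overlapped. Ser-GCT-5 stood lower, with 2 of 144, 3 of 134 and 6 of 127 mismatched calls in WT and 11 of 220, 2 of 227 and 3 of 189 in KO. Each Ser-GCT-5 read was assumed to be counted on Ser-GCT-2 too, and its counts were subtracted. The remaining Ser-GCT-2 reads had mismatch shares of 14.9%, 28.9% and 16.0% in WT and 30.9%, 21.5% and 18.9% in KO. On that assumption the share of mismatched reads depended on which copies a read was counted on, and the part that alignment plays was not tested. Read starts at position 26 were 0.459% in WT and 1.19% in KO on Ser-GCT-2, and 0.411% and 1.91% on Ser-GCT-4. They were 0.415% and 1.94% on Ser-GCT-1 and 0.96% and 3.0% on Ser-GCT-5, all 4 without overlap. On Ser-GCT-3 they were 1.76% and 0.765%, with overlap. Over all read-start sites of the series 14.3% did not overlap, and no serine site was called.

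In the AGA and TGA reads, guanosine 26 was covered by few reads because most 5′ reads ended before it. On Ser-AGA-1, 5 of 45, 6 of 44 and 4 of 42 calls were mismatched in WT and 5 of 50, 4 of 39 and 7 of 62 in KO. All 31 mismatched calls were A, and the means of 11.4% ± 2.07 (SD, n = 3) and 10.5% ± 0.683 (SD, n = 3) overlapped between genotypes. Coverage was under the minimum of 100 reads per library, so this site was not tested. Deletions of guanosine 26 were 0% in WT and 1.95% in KO on Ser-AGA-1 and 0% and 2.21% on Ser-TGA-2, without overlap. On Ser-AGA-2 they overlapped, at 1.59% and 1.92%, and none of these was tested. Ser-CGA-2 was listed at position 26 in KO replicate 2 alone, with 0 mismatches in 33 calls, which allows a share of up to 9.09%.

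**Figure D2:**
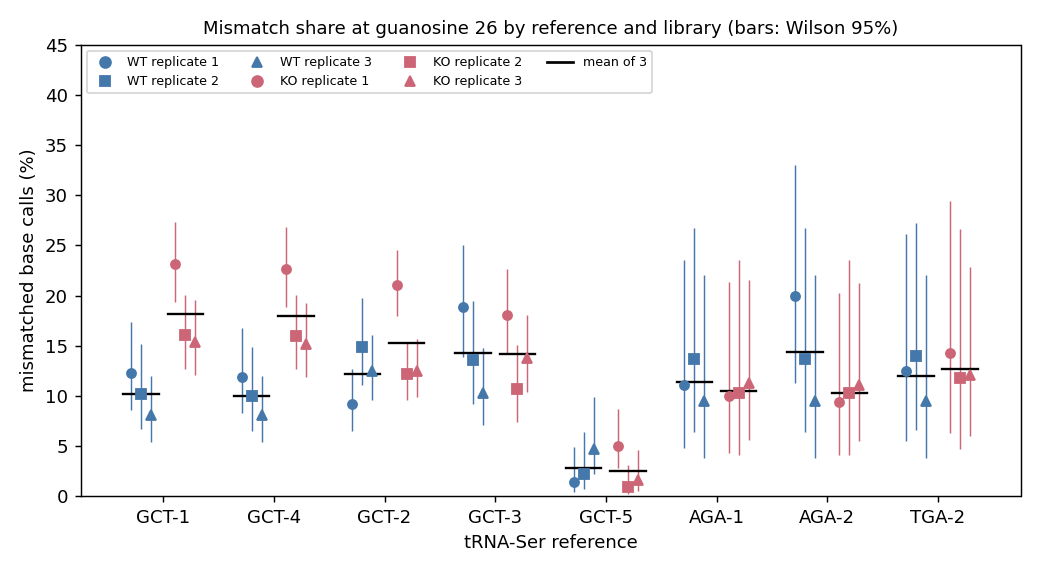
Mismatched base calls at guanosine 26 in percent (vertical axis) for 8 tRNA-Ser references (horizontal axis), by library. Points are libraries with Wilson 95% intervals, which cover counting error only, and black lines are means of 3. KO points of GCT-1 and GCT-4 lie above the WT points, those of the other references overlap with WT, and GCT-5 is lowest.

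Outside serine, guanosine 26 passed the coverage minimum on 9 Val references, whose pooled mismatch shares ran from 0% to 3.62%, and on 1 Gly reference at 0.0589%. The 5 Ser-GCT references ran from 2.59% to 15.3%. Phe-GAA-1, which had between 56 and 147 calls per library, was more often mismatched, at 27.2% ± 13.2 (SD, n = 3) in WT and 18.1% ± 9.4 (SD, n = 3) in KO. Asn-GTT-3, with 30 to 82 calls per library, had 36.5% ± 29.0 (SD, n = 3) in WT and 72.7% ± 11.1 (SD, n = 3) in KO, and its groups overlapped. Of leucine, the other family with a long variable arm, Leu-AAG-2 had 1.42% ± 2.46 (SD, n = 3) and 5.14% ± 4.62 (SD, n = 3), Leu-AAG-1 had 4.12% ± 7.13 (SD, n = 3) and 3.04% ± 4.03 (SD, n = 3), and Leu-TAG-3 had 0% and 0.585% ± 1.01 (SD, n = 3), all with overlapping groups. The differences between families were not tested.

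Cytidine 32 and adenosine 37 were read almost without mismatches. On Ser-GCT-2, 0 of 2600 pooled calls were mismatched at cytidine 32, which allows a share of up to 0.115%. On Ser-GCT-4 the count at cytidine 32 was 0 in 5 libraries and 10 of 391 calls, all G, in KO replicate 2. On Ser-AGA-2, 5 of 43 calls in WT replicate 1 and 3 of 33 in WT replicate 3 were A, while the 3 KO libraries had none among 33 to 43 reads. Ser-AGA-1 had 0 mismatches in 178 pooled calls at this position. At adenosine 37 of Ser-GCT-2, 0 of 1849 pooled calls were mismatched, which allows a share of up to 0.162%. At guanosine 34, the first anticodon base of the GCT isoacceptor, 2 of 2039 were.

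The middle cytidine of the variable-arm loop, C50, was mismatched on some GCT copies and not on others. The 13 bases of the variable region are shown with position 50 in capitals, beside the same region of a leucine tRNA with position 51 in capitals.
Ser-GCT-2, positions 45 to 57: gtgctCtgcacgc
Ser-GCT-3, positions 45 to 57: gtgctTtgcacgc
Leu-CAG-2, positions 46 to 58: ctcccCtggaggc
In both serine sequences, bases 45 to 48 pair with bases 52 to 55 in a stem of 4 pairs that leaves a loop of 3 bases. In Leu-CAG-2, bases 46 to 49 pair with bases 53 to 56 and likewise leave 3 loop bases, so the capitals stand at the same place in the loop.

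On Ser-GCT-2, 21 of 257, 26 of 188 and 15 of 236 calls at C50 were mismatched in WT, and 38 of 387, 17 of 373 and 39 of 364 in KO. The means were 9.45% ± 3.9 (SD, n = 3) and 8.36% ± 3.33 (SD, n = 3), with overlapping groups and an adjusted p of 0.962 in the limma-moderated test. On Ser-GCT-5 they were 14.2% ± 4.74 (SD, n = 3) and 11.7% ± 3.06 (SD, n = 3), also overlapping. Without WT replicate 2 the KO minus WT difference turned to 1.1 points on Ser-GCT-2 and to 0.112 on Ser-GCT-5. Mismatched calls were spread over 2 bases, with 68 A and 88 G on Ser-GCT-2, unlike the single base at guanosine 26. The base was also deleted in 2.11% of WT and 2.09% of KO reads of Ser-GCT-2, with individual libraries between 1.5% and 2.87%.

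Ser-GCT-4 has the same variable arm as Ser-GCT-2 and showed 0 mismatches in 873 pooled calls at C50, which allows a share of up to 0.344%. Ser-GCT-1 showed 0 in 793. Both differ from the mismatched copies by A58G, the substitution named above, which lies 8 bases from C50, and the part that the assignment of reads to copies plays in this was not tested. Ser-GCT-3, with T at position 50, had 0 mismatches in 1673 calls. The corresponding cytidine of Leu-CAG-2, C51, was mismatched at 89.5% ± 9.75 (SD, n = 3) in WT and 77.3% ± 9.61 (SD, n = 3) in KO, from 33 to 75 calls per library. Leu-TAG-3 had 0% at its C51 in every library from at least 235 calls, but the place of that base in its loop was not determined. The differences between copies and between families were not tested.

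Adenosine 58 lies at reference position 67 in serine tRNAs and was mismatched in few reads. On Ser-GCT-2, 13 of 578, 10 of 446 and 5 of 418 calls were mismatched in WT, and 6 of 549, 9 of 731 and 9 of 610 in KO. The means were 1.9% ± 0.606 (SD, n = 3) and 1.27% ± 0.194 (SD, n = 3), with an adjusted p of 0.814 in the limma-moderated test. The difference of -0.629 points was -0.979 without WT replicate 3. Of the 52 mismatched calls, 33 were T and 19 were G. On Ser-AGA-1 the pooled count was 15 of 543, and on Ser-CGA-2 it was 20 of 537. The Ser-CGA-2 mismatches came from WT replicate 1, with 12 of 98, and KO replicate 1, with 8 of 123, while the other libraries had 0.

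The isoacceptors were compared at adenosine 58 within libraries, through the deepest copy of each at that position, since it was the only compared position where 3 isoacceptors had 50 calls in each library. Over the 6 libraries, Ser-AGA-1 averaged 2.98% ± 2.42 (SD, n = 6), Ser-CGA-2 3.12% ± 5.17 (SD, n = 6) and Ser-GCT-3 1.58% ± 0.873 (SD, n = 6). None of the 3 differences was separated from the spread between libraries. AGA exceeded GCT by 1.41 points on average over 6 libraries and was higher in 4 of them (exact two-sided sign-flip permutation test, p = 0.25, adjusted p = 0.75), and CGA exceeded it by 1.55 points on average but was higher in 2 of the 6 (exact test, p = 0.625, adjusted p = 0.938). AGA and CGA differed by -0.141 points (exact test, p = 1). Without WT replicate 1 the AGA and CGA difference was 1.66 points and the CGA and GCT difference was -0.284 points. The AGA and GCT difference ran from 0.771 to 2.255 points with each library left out in turn. The smallest p that 6 libraries allow is 0.0312. At the same canonical position, pooled mismatch shares were 8.24% to 8.67% on 5 Leu references and up to 78.9% on a Met reference, so serine stood at the low end of the families with 100 calls per library, where 1 Asn and 2 of 5 Glu references were lower.

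**Figure D3:**
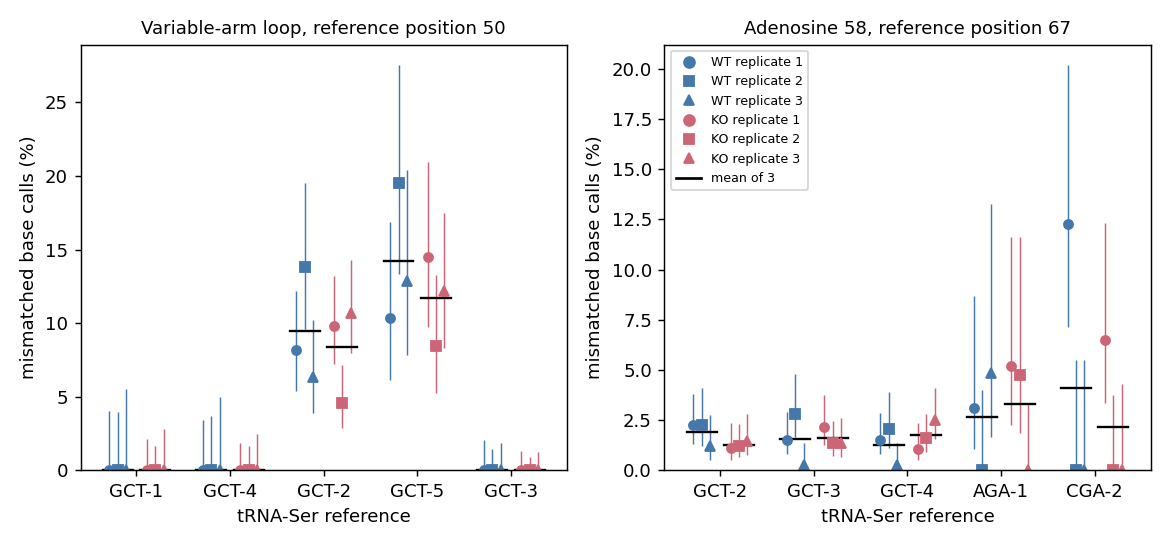
Mismatched base calls in percent (vertical axes) at reference position 50 in the variable-arm loop (left) and at adenosine 58 (right), by tRNA-Ser reference and library. Points are libraries with Wilson 95% intervals and black lines are means of 3. At position 50 GCT-2 and GCT-5 are mismatched while GCT-1, GCT-4 and GCT-3 are at 0, and at adenosine 58 most points lie below 5%.

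**Figure D4:**
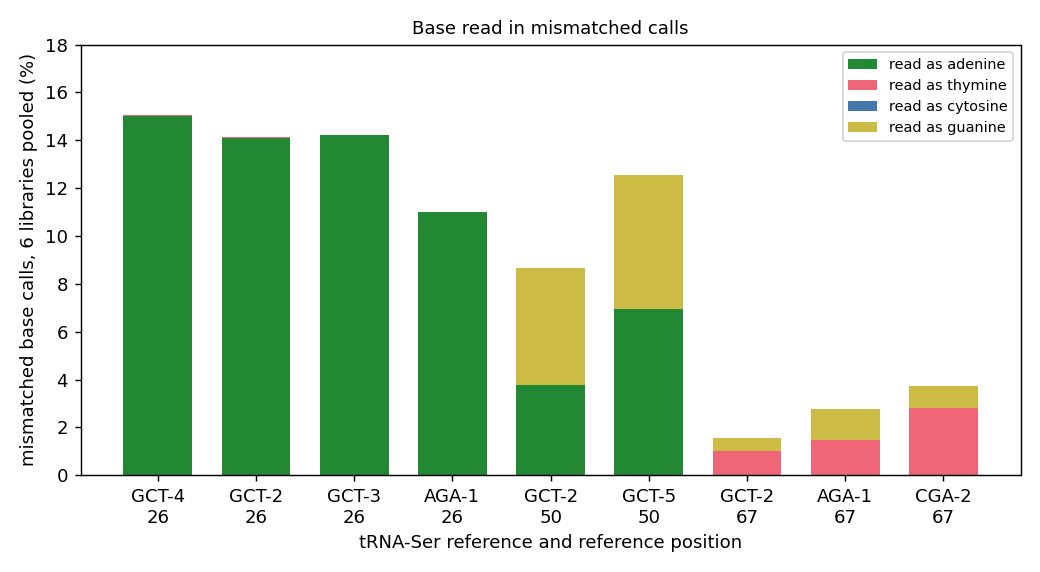
Mismatched calls as a percentage of all calls pooled over 6 libraries (vertical axis), split by the base read, for tRNA-Ser references at reference positions 26, 50 and 67 (horizontal axis). Guanosine 26 is read as adenine, C50 as adenine and guanine, and adenosine 58 (position 67) as thymine and guanine.

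Reads began or ended at preferred bases, the commonest of which differed between the isoacceptors, and these ends set much of the serine coverage. On Ser-GCT-2, Ser-GCT-3 and Ser-GCT-4, most reads covering position 64 (canonical 55, the pseudouridine site of the T loop) also started there. Ser-GCT-2 had 500 of 555, 384 of 438 and 363 of 413 in WT and 476 of 553, 624 of 691 and 482 of 575 in KO, and the same number of reads started there on Ser-GCT-3 and Ser-GCT-4. Position 64 was listed on Ser-GCT-1 in 4 libraries, at 30 to 50 reads, and on Ser-GCT-5 in KO replicate 3, at 54 reads, of which 0 started there. On Ser-CGA-2 the start lay at position 68 (canonical 59), with 262 of 360, 339 of 405 and 299 of 365 reads in WT and 236 of 359, 441 of 539 and 390 of 476 in KO. On the AGA and TGA set, most reads covering position 24 ended there, with 75 of 128, 135 of 218 and 104 of 164 reads of Ser-AGA-1 in WT and 134 of 193, 204 of 282 and 176 of 280 in KO. The stretches that these ends delimit are shown from the 5′ end of the reference to the read end, or from the read start to the CCA end, with adenosine 58 in capitals.
Ser-AGA-1, positions 1 to 24: gtagtcgtggccgagtggttaagg
Ser-GCT-2, positions 64 to 85: tcgAatcccatcctcgtcgcca
Ser-CGA-2, positions 68 to 85: atcctgttcgtgacgcca
Their lengths of 24, 22 and 18 bases are below the size range of 30 to 150 bp given for the libraries. Position 68 is the base directly 3′ of adenosine 58, and whether starts there mark a fragment or a stop of reverse transcription was not tested. Whether reads were trimmed cannot be told from the tables.

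On the 5′ side of the GCT reads, ends lay in the anticodon loop, where cleavage by stress-activated nucleases is known to occur. On Ser-GCT-2, 44, 26 and 63 reads ended at position 32 in WT and 45, 24 and 65 in KO. At position 33 the counts were 32, 24 and 64 in WT and 52, 51 and 81 in KO, and at position 35 they were 19, 26 and 45 in WT and 41, 65 and 64 in KO. Reads also ended just before the T-loop start. At position 63, 84 of 139, 44 of 98 and 116 of 166 reads ended in WT and 158 of 235, 156 of 223 and 131 of 224 in KO, which is 58.4% ± 12.6 (SD, n = 3) and 65.2% ± 5.99 (SD, n = 3), with overlapping groups.

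No serine site passed the adjusted threshold of 0.05 between genotypes in any kind of test. Of 10 serine mismatch sites, on 5 GCT references, 0 were called, 1 had an unadjusted p under 0.05 and 2 had groups that did not overlap. Over all 138 mismatch sites of the series, 0% were called, 7.97% had an unadjusted p under 0.05 and 3.62% did not overlap. The 2 serine sites without overlap, guanosine 26 of Ser-GCT-1 and Ser-GCT-4, rest on the same reads. Of 3 serine deletion sites, 0 were called and 0 had an unadjusted p under 0.05, against 0% and 13.6% of 59 sites, and 1 had groups that did not overlap, against 13.6%. That site was position 35 of Ser-GCT-3, with deletions in 0.278% of WT and 1.86% of KO reads. They were 1, 0 and 0 reads in WT and 4, 3 and 4 in KO. Ser-GCT-1, Ser-GCT-2 and Ser-GCT-4 held the same deletion counts there, also without overlap, at 0.125% and 0.867% on Ser-GCT-2.

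Of 124 serine read-start sites, 0 were called, against 0.385% of 1038 sites, 4 had an unadjusted p under 0.05, against 7.42%, and 6 did not overlap between genotypes, against 14.3%. These shares were not above those of the series. Of the 4 sites, Ser-GCT-4 at position 64 had starts in 89.9%, 93.0% and 94.5% of reads in WT and 85.9%, 87.9% and 87.5% in KO, with all KO libraries lower. The same number of reads started there on Ser-GCT-2 and Ser-GCT-3, where the groups overlapped. Their WT and KO means were 88.55% and 86.74% on Ser-GCT-2 and 84.71% and 80.16% on Ser-GCT-3. On Ser-GCT-3, reads starting at position 48, in the variable stem, were 17 of 152, 45 of 225 and 47 of 165 in WT and 24 of 264, 47 of 367 and 24 of 253 in KO, and the groups overlapped. The difference of -9.43 points there was -13.8 without WT replicate 1 and -5.13 without WT replicate 3. On Ser-AGA-2, reads starting at position 8 were 10 of 103, 10 of 196 and 13 of 144 in WT and 4 of 159, 2 of 254 and 10 of 247 in KO, with all KO shares lower. At position 10 they were 0 of 103, 9 of 205 and 6 of 153 in WT and 1 of 161, 1 of 257 and 2 of 249 in KO, and the groups overlapped, since WT replicate 1 had none. The difference at position 10, of -2.17 points, was -3.55 without WT replicate 1 and -1.36 without WT replicate 2. Each of the 4 had an adjusted p of 0.619 in the limma-moderated test.

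Of 68 serine read-end sites, 0 were called, 1 had an unadjusted p under 0.05 and 7 did not overlap, against 0%, 9.57% and 12% of 836 sites. The 1 site was position 65 of Ser-GCT-3, where 0.299% of WT and 2.0% of KO reads ended (limma-moderated test, unadjusted p = 0.0287, adjusted p = 0.483). Among those without overlap was the read end at position 24 on Ser-AGA-2, at 60.2% ± 3.3 (SD, n = 3) in WT and 67.8% ± 4.88 (SD, n = 3) in KO. On Ser-TGA-2 they were also apart, at 62.2% ± 1.22 (SD, n = 3) and 70.9% ± 6.23 (SD, n = 3), the highest serine difference in read ends. On Ser-AGA-1, with the same reads ending there, the groups overlapped, at 61.3% ± 2.47 (SD, n = 3) and 68.2% ± 4.86 (SD, n = 3).

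Coverage of the long variable arm relative to the anticodon arm did not separate the genotypes. The mean coverage over the variable region was divided by that over positions 27 to 43 within each library, over the positions listed in all 6. All 13 and 17 positions were listed on the 5 GCT references, but only 7 and 5 on Ser-AGA-1 and 7 and 3 on Ser-TGA-2, whose ratios do not cover the whole arms. On Ser-GCT-2 this ratio was 0.859, 0.871 and 0.772 in WT and 0.774, 0.860 and 0.876 in KO. On Ser-GCT-3, where 32.1% of WT and 44.3% of KO reads covering position 42 started there, it was above 1 in every library, at 1.35 ± 0.263 (SD, n = 3) and 1.43 ± 0.315 (SD, n = 3). On Ser-GCT-4 it was 0.534 ± 0.101 (SD, n = 3) and 0.629 ± 0.0714 (SD, n = 3). Of the 7 serine references tested 0 were called by limma, and 0 had an unadjusted p under 0.05, against 0% and 0% of 54 references.

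The abundance of serine tRNAs, taken as the highest coverage on a reference, did not differ between genotypes beyond the spread. Of 10 serine references 0 were called by edgeR's quasi-likelihood test and 0 had an unadjusted p under 0.05, against 22.8% and 30.3% of 145 references, and DESeq2 also called 0. Ser-GCT-2 reached 585, 466 and 423 reads in WT and 608, 745 and 616 in KO, before scaling for depth, and the log2 fold change from edgeR was -0.06 ± 0.21 (SE; adjusted p = 0.872). Ser-CGA-2 reached 360, 405 and 366 in WT and 359, 539 and 476 in KO, and edgeR's log2 fold change was -0.20 ± 0.22 (SE; adjusted p = 0.586). With each library left out in turn, the Ser-CGA-2 value ran from -0.48 to -0.08. Ser-AGA-1 reached 128, 219 and 164 in WT and 193, 285 and 280 in KO, and edgeR's value was 0.08 ± 0.27 on the log2 scale (SE; adjusted p = 0.87). The lowest and the highest change were -0.53 on Ser-CGA-1, at 33 to 65 reads, and 0.25 on Ser-GCT-1. The median over serine references was -0.01, and that over all references 0.00. With upper-quartile scaling, which moved the median of all references to -0.49, 2 serine references, Ser-CGA-1 and Ser-CGA-2, were called lower, and 71 of 145 references were called in all. The highest coverage lay in the 3′ stretch of Ser-GCT-3, Ser-GCT-4 and Ser-CGA-2 in all 6 libraries and in the 5′ stretch of Ser-AGA-1, so it measures the commonest stretch read and not the intact tRNA. On Ser-GCT-2 it lay at positions 68 to 70 in 5 libraries and at position 28 in KO replicate 1, so that its fold change mixes both stretches. With the median coverage along the reference in its place, the log2 fold change was -0.92 on Ser-CGA-2 (edgeR, unadjusted p = 0.254) and -0.62 on Ser-AGA-2 (edgeR, unadjusted p = 0.0776), and it turned to -0.31 on Ser-AGA-1 and to 0.19 on Ser-GCT-2. The Ser-AGA-1 value also turned to -0.39 with upper-quartile scaling and to -0.15 without KO replicate 2, and the Ser-GCT-2 value to 0.07 without WT replicate 1. In bulk tissue, fewer cells of a type and less tRNA per cell cannot be told apart.

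**Figure D5:**
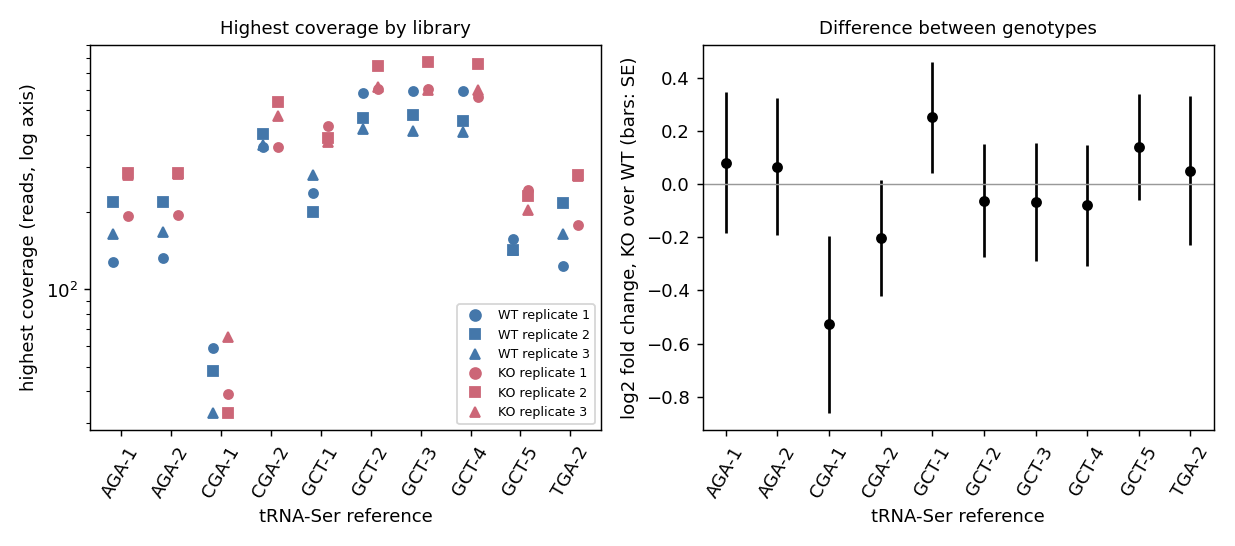
Highest coverage in reads on a log axis (left) by tRNA-Ser reference and library, and the log2 fold change of KO over WT from edgeR with its standard error (right). Ser-CGA-1 lies lowest at -0.53 and Ser-GCT-1 highest at 0.25, and none passed the adjusted threshold.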

How the data were processed

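Small RNA of mouse brain was measured in 3 WT and 3 KO libraries, with genotype and replicate number taken from the sample titles. The deposited tables hold, per the file headers, raw counts at every listed reference position for coverage, base calls, stops, deletions and insertions, with the mean and median base quality score. Per the submitters' processing notes, GATK (version 3.5) was used. The aligner, the tRNA reference set and the build are not given in the sources used here. Quality scores were read as deposited and not tested. Stops are listed 1 position after the first base of the reads they count, and deletions 1 position before the deleted base, so both were moved. Read ends were inferred from the fall in coverage, after seeing the data.

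Mismatches are calls of a base other than the reference's, as a percentage of all 4 bases called. Sites with at least 100 reads in each library and a pooled rate of at least 1% were fitted over all references. Sites with identical counts on several references were all kept. The model was a two-sided quasi-binomial one moderated with limma (version 3.58.1, R 4.3.3), with Benjamini-Hochberg adjustment at 0.05. Abundance used edgeR (version 4.0.16) with TMM scaling, and DESeq2 (version 1.42.0) as an alternative. Isoacceptors were compared at the same position by exact sign-flip permutation over libraries. At 100 reads no pair could be compared, so 50 was used. Intervals are Wilson 95% intervals, and the limit that a count of 0 allows is 3 counts of the total. Both cover counting error only. The tools were tested on simulated data. Alternatives changed the coverage and rate minimum, the test, the scaling, the summary of coverage and the depth limit. Others counted sites with identical counts once, added the replicate block, and left out each library.

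Described singly were the deepest copy of each anticodon at positions 26, 32, 34, 37, 58 and in the variable arm, and each serine site with an unadjusted p under 0.05. Other copies were named after their values were seen. The members and lists were chosen with earlier results of these data known. Libraries are stated to be biological triplicates, with no animal named, and p-values measure the spread between these libraries. Libraries of 1 group differed by more than sampling noise, with a chi-square per degree of freedom of 16.4 to 58.2 over 128 references.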

Additional observations from a re-analysis of the deposited data

Results flagged for a closer look

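Insertions at reference position 85, the last base of the CCA end, lay outside the measures compared above. On 4 serine references, each listed KO library was above the listed WT libraries. The share of all references with such a difference was not computed. On Ser-AGA-1, 9 of 52, 10 of 54 and 16 of 62 reads carried one in KO, a mean of 20.54%, against 4 of 40 in WT replicate 1 and 2 of 32 in WT replicate 2, while the position had under 30 reads in WT replicate 3. Ser-TGA-2 held the same counts and the same KO mean of 20.54%. Ser-AGA-2 held the same insertion counts, with a KO mean of 19.95%, so these references are not independent. On Ser-GCT-3 the KO mean was 2.148%, from 6 of 380, 14 of 452 and 5 of 283 reads, against 1 of 312, 3 of 258 and 3 of 200 in WT. WT replicate 3, at 1.5%, was just under KO replicate 1, at 1.58%. Ser-GCT-4 and Ser-GCT-2 had KO means of 2.28% and 1.66% against 1.25% and 0.614% in WT, with overlapping groups, and Ser-CGA-2 had 0 insertions in every library from 330 to 510 reads. The difference between genotypes was not tested at these sites, and the inserted bases are not given in the tables.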

How the results depend on the processing

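No serine call appeared under any alternative except upper-quartile scaling of abundance, which gave 2. It moved the abundance of Ser-CGA-2 to -0.69 (edgeR, adjusted p = 0.0378), of Ser-AGA-1 to -0.39 and of Ser-TGA-2 to -0.42. With the median coverage in place of the highest, the log2 fold changes were -0.31 on Ser-AGA-1, -0.17 on Ser-TGA-2, 0.19 on Ser-GCT-2, -0.92 on Ser-CGA-2 and -0.62 on Ser-AGA-2, and without references at the depth limit they were -0.0163 on Ser-AGA-1 and -0.0468 on Ser-TGA-2. The cause was not tested. With each library left out in turn, the mismatch difference at guanosine 26 ran from 5.53 to 9.37 points on Ser-GCT-1, 5.62 to 9.33 on Ser-GCT-4, 0.168 to 4.63 on Ser-GCT-2, -2.0 to 2.24 on Ser-GCT-3 and -1.55 to 0.676 on Ser-GCT-5, the last turned by WT replicate 3 and Ser-GCT-3 by WT replicate 1, each also by KO replicates 2 and 3. At C50 it ran from -2.64 to 1.1 on Ser-GCT-2 and -4.48 to 0.112 on Ser-GCT-5, where WT replicate 2 turned both and KO replicate 2 the first. Abundance ran from -0.48 to -0.08 on Ser-CGA-2, and from -0.15 to 0.31 on Ser-AGA-1, -0.20 to 0.28 on Ser-TGA-2 and -0.303 to 0.0712 on Ser-GCT-2, the last 3 turned by WT replicate 1 and Ser-AGA-1 and Ser-TGA-2 also by KO replicates 2 and 3. The KO minus WT difference in the log2 variable-arm ratio of Ser-GCT-2 ran from -0.051 to 0.0593, turned by WT replicate 3 and KO replicates 2 and 3. The isoacceptor differences ran from -1.14 to 1.66 (AGA and CGA, turned by WT replicate 1 and KO replicate 1), 0.771 to 2.25 (AGA and GCT) and -0.284 to 2.43 (CGA and GCT, turned by WT replicate 1). With the replicate block, 0 serine sites were called, and 2 mismatch and 3 read-start sites had an unadjusted p under 0.05. These counts stand without the share of all sites under that model. The labels do not say whether the replicate numbers mark pairs, and deviations correlated between -0.106 and 0.136. The guanosine 26 difference on Ser-GCT-4 had an adjusted p of 0.196 with the block (limma-moderated test), which by its construction leaves the difference itself at 7.96 points. A coverage minimum of 500 left no serine mismatch site to test. Depth limits AGA, TGA and CGA most, since guanosine 26 had under 100 reads there and adenosine 37 under 30.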

Other observations

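Reads of Ser-AGA-1 also ended at reference position 72 (canonical 63), in the 3′ strand of the T stem. They were 59 of 100 reads in WT replicate 1 and 46 of 93 in WT replicate 2, while the share could not be computed in WT replicate 3. In KO they were 40 of 103, 36 of 93 and 53 of 121. The Ser-AGA-1 site was not tested, because its coverage was under 100 reads in some libraries. On Ser-GCT-2 the share ending there was 0.487% in WT and 0% in KO. On Ser-CGA-2, where it was tested, it was 2.17% ± 0.665 (SD, n = 3) in WT and 4.36% ± 1.55 (SD, n = 3) in KO, higher in each KO library than in each WT library (limma-moderated test, adjusted p = 0.693).

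At reference position 51 of Ser-AGA-1, the base after the middle of the variable-arm loop, between 36.8% and 80.8% of reads started in WT and between 46.3% and 63.6% in KO, from 33 to 68 reads per library. On Ser-GCT-2 starts at this position were rarer, at 1.13%, 6.06% and 0% in WT and 0%, 1.04% and 0.267% in KO.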
